A study of Rattus norvegicus with 19 samples.

Results

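The receptors and the phosphoprotein of striatal dopamine signalling were followed across 19 brain RNA-seq libraries of rats as 4 genes: Drd1 (ENSRNOG00000023688), Drd2 (ENSRNOG00000008428), Adora2a (ENSRNOG00000001302) and Ppp1r1b (ENSRNOG00000028404). They were taken by their Ensembl identifiers, 4 of the 32883 in the deposited table, and all 4 passed the filter on low counts together with 15372 identifiers in all. Neither the deposited table nor the RefSeq gene table used here pairs these identifiers with symbols, so the symbols are those of the selection rule; RefSeq lists each symbol as a protein-coding rat gene but could not be used to check the pairing. The libraries came from Wistar rats, all of them daughters kept on chow, and differed in what the father had met: 5 had control fathers, 4 had fathers fed a high-fat diet (HFD), 5 had fathers with early life stress (ELS, maternal separation in the series text) and 5 had fathers with both (ELS-HFD). The daughters went through an elevated plus maze on postnatal day 57 ± 1. Their age at tissue collection, the litter and the father's identity are not in the labels, so the p-values measure the spread between these samples only. The labels give the tissue as brain, lysed whole, and the series text narrows it to the amygdala while calling the animals male; the female label of each sample was followed. The cell type markers that would check the dissection could not be looked up, because no identifier could be matched to their symbols.

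Dopamine acts through receptors of opposite sign. The D1 receptor, encoded by Drd1, raises cyclic AMP, whereas the D2 receptor, encoded by Drd2, lowers it. In the striatum, which borders the amygdala, these receptors mark separate sets of medium spiny neurons, the direct pathway with D1 and the indirect pathway with D2. Adora2a encodes an adenosine receptor that raises cyclic AMP in the D2 neurons. Ppp1r1b encodes DARPP-32, a phosphoprotein of both sets that becomes an inhibitor of protein phosphatase 1 when protein kinase A phosphorylates it. The amygdala also has neurons with dopamine receptors, among them the D1-rich intercalated cells and D2 neurons of the central nucleus.

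The RefSeq promoter table matched Drd1 and Drd2, and not Adora2a and Ppp1r1b. The Drd2 sequence is shown because Drd2 is one of the genes that varied most closely together below and its RefSeq start is the start of the annotated gene. It covers the 250 bases before that start on the plus strand of the GRCr8 build, chr8:58605153-58605402, and the capitals mark the GC box GGGCGG and its reverse complement CCGCCC.
Drd2: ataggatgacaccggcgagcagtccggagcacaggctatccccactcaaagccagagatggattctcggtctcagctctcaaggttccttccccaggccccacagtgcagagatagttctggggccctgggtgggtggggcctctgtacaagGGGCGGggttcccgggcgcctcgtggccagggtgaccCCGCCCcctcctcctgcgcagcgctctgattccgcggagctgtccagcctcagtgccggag
The GC box was searched on both strands; 1 forward and 1 reverse match lie in this window, and 30.5% of the 33469 RefSeq windows of the same length hold at least 1. The TATA box TATAAA and the cyclic AMP response half-site TGACG were not found on either strand; 12.9% and 18.2% of windows hold them. These matches describe letters and not binding. The window given for Drd1 lies inside the annotated gene and is not printed.

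The libraries held 7034837 to 20266594 counts (median 14027828). Levels are given as CPM, the gene's share of the library's counts scaled to the same total in every library. CPM is not divided by transcript length, so levels are compared between libraries and not between genes. The 4 genes were counted well above the noise of counting: the fewest counts in any library were 162 for Drd1, 104 for Drd2, 170 for Adora2a and 1313 for Ppp1r1b. For the smallest of these, Drd2 in ELS-HFD replicate 1, the level of 7.83 CPM had an exact 95% Poisson interval of 6.40 to 9.49 CPM. Such intervals cover counting error only. HFD replicate 1, ELS-HFD replicate 2 and ELS-HFD replicate 3 stood apart on the first principal component of all tested genes, at 113.69, 49.23 and 47.82 against -29.02 to 10.59 in the other 16 libraries, and the comparisons and correlations below that moved without them are given both ways.

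Drd1, the D1 receptor gene, was at its highest in the daughters of ELS fathers. Drd1 was at 20.4, 23.4, 25.7, 24.5 and 26.1 CPM in control replicates 1 to 5. In HFD replicates 1 to 4 Drd1 was at 14.7, 36.02, 23.2 and 34.5 CPM. The control libraries lay close together, whereas the HFD libraries held the lowest CPM of all 19 (replicate 1) and the highest levels outside the ELS group. The TMM scaling factor of HFD replicate 1 was 0.772, and scaled by it Drd1 there was at 19.02 CPM, above the 18.5 CPM of ELS-HFD replicate 3. In ELS replicates 1 to 5 Drd1 was at 46.8, 64.7, 38.2, 36.8 and 29.9 CPM, and in ELS-HFD replicates 1 to 5 at 24.6, 23.0, 18.2, 27.5 and 23.4 CPM. All 5 ELS libraries were above all 5 control and all 5 ELS-HFD libraries, with replicate 2 the highest. In order of the means, ELS was at 43.3 ± 13.4 CPM (SD, n = 5), HFD at 27.1 ± 10.1 CPM (SD, n = 4), control at 24.0 ± 2.30 CPM (SD, n = 5) and ELS-HFD at 23.3 ± 3.37 CPM (SD, n = 5). HFD overlapped both of its neighbours in this order, and control and ELS-HFD overlapped as well.

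Drd2, the D2 receptor gene, ranged more widely within every group. Drd2 was at 14.7, 16.8, 7.81, 21.2 and 33.3 CPM in control replicates 1 to 5. In HFD replicates 1 to 4 Drd2 was at 34.9, 27.05, 8.88 and 21.8 CPM. Replicate 3 was the lowest library in both of these groups. In ELS replicates 1 to 5 Drd2 was at 52.9, 69.5, 20.4, 41.7 and 16.9 CPM, and in ELS-HFD replicates 1 to 5 at 7.83, 17.5, 18.8, 16.3 and 21.7 CPM. ELS replicates 1, 2 and 4 were above every other library in CPM, though with TMM scaling HFD replicate 1 (45.2 CPM) passed ELS replicate 4 (39.9 CPM), while ELS replicates 3 and 5 lay among the controls. The order of means was the same as for Drd1, with ELS at 40.3 ± 22.1 CPM (SD, n = 5), HFD at 23.2 ± 10.9 CPM (SD, n = 4), control at 18.8 ± 9.45 CPM (SD, n = 5) and ELS-HFD at 16.4 ± 5.20 CPM (SD, n = 5), and all neighbours overlapped.

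Adora2a, the adenosine receptor gene of the D2 neurons of the striatum, had the widest range of the 4. Adora2a was at 23.7, 28.3, 10.3, 21.0 and 39.5 CPM in control replicates 1 to 5. In HFD replicates 1 to 4 Adora2a was at 37.7, 39.6, 12.4 and 31.6 CPM. As for Drd2, replicate 3 was lowest in both groups. In ELS replicates 1 to 5 Adora2a was at 58.7, 125, 30.4, 48.5 and 22.1 CPM, and in ELS-HFD replicates 1 to 5 at 14.01, 29.7, 25.3, 22.8 and 54.0 CPM. ELS replicate 2 was 12.2-fold above the lowest library, control replicate 3. The ELS mean was 57.01 ± 40.9 CPM (SD, n = 5), followed by HFD at 30.3 ± 12.4 CPM (SD, n = 4), ELS-HFD at 29.2 ± 15.01 CPM (SD, n = 5) and control at 24.6 ± 10.7 CPM (SD, n = 5), and every group overlapped every other.

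Ppp1r1b, which encodes DARPP-32, had the narrowest relative range. Ppp1r1b was at 167, 167, 127, 132 and 194 CPM in control replicates 1 to 5. In HFD replicates 1 to 4 Ppp1r1b was at 218, 176, 139 and 137 CPM. In ELS replicates 1 to 5 Ppp1r1b was at 246, 424, 160, 189 and 171 CPM, and in ELS-HFD replicates 1 to 5 at 140, 187, 186, 126 and 306 CPM. ELS replicate 2 was again the highest library, followed by ELS-HFD replicate 5, and the highest was 3.35-fold above the lowest. The ELS mean was 238 ± 109 CPM (SD, n = 5), followed by ELS-HFD at 189 ± 70.8 CPM (SD, n = 5), HFD at 167 ± 38.05 CPM (SD, n = 4) and control at 157 ± 27.9 CPM (SD, n = 5), and all groups overlapped.

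**Figure D1:**
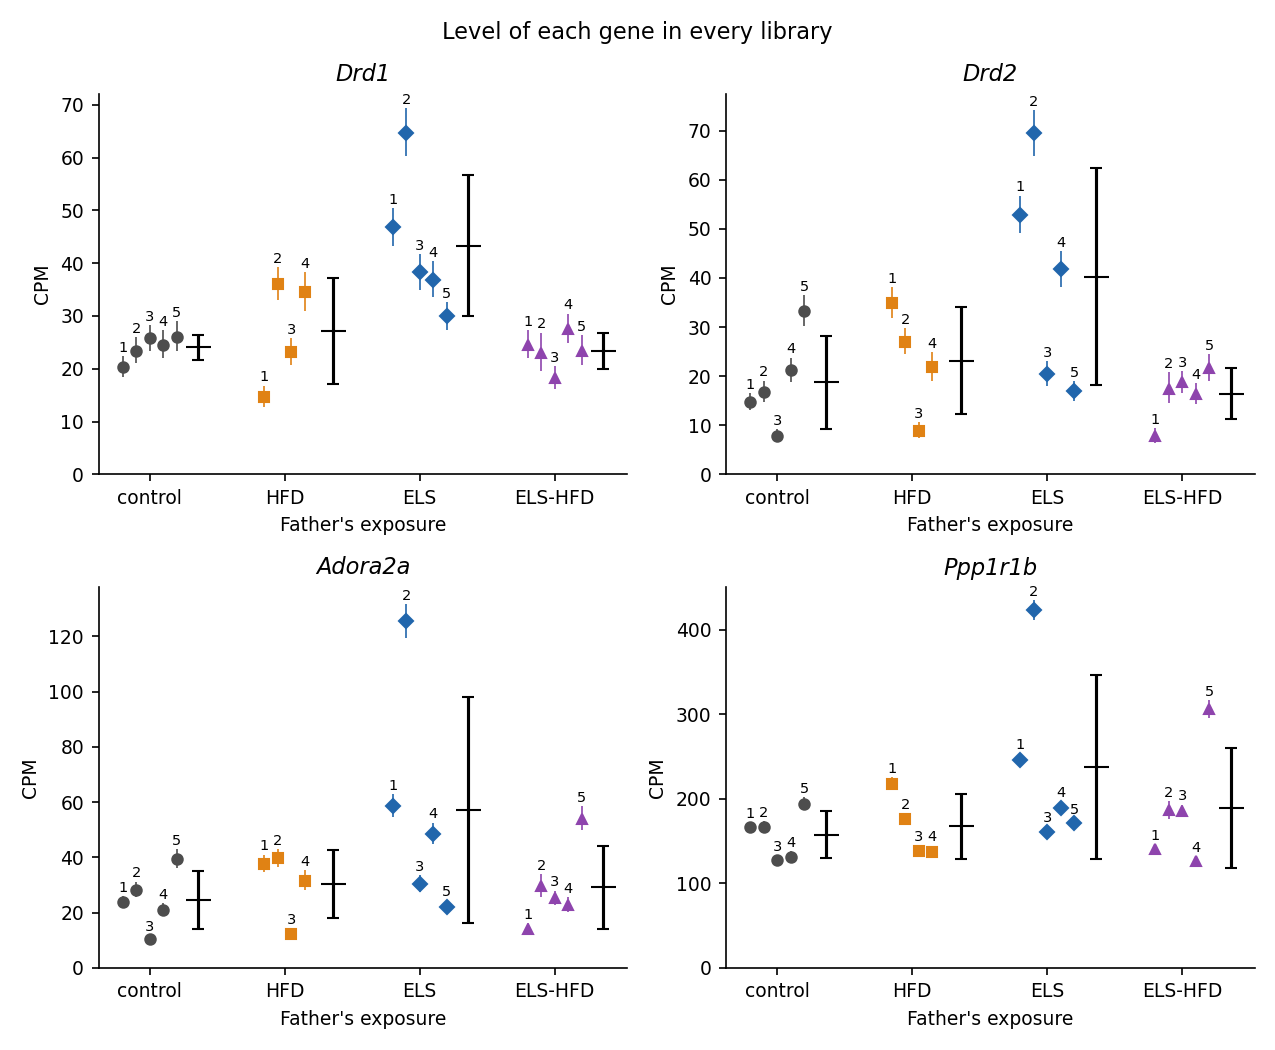
Level in CPM (vertical axis, from 0) of Drd1, Drd2, Adora2a and Ppp1r1b in each of the 19 libraries by the father's exposure. Points are libraries numbered by replicate with exact 95% Poisson intervals, and black bars are the group mean ± SD; ELS replicate 2 is the highest library in all 4 panels, and the ELS points of Drd1 lie above all control and ELS-HFD points.

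The spread of these genes was large beside that of most genes. The SD over the 19 libraries of log2(CPM + 1) was 0.82 for Adora2a, 0.81 for Drd2, 0.48 for Drd1 and 0.45 for Ppp1r1b, against a median of 0.29 over all 15372 genes. That placed Adora2a above 96.8%, Drd2 above 96.8%, Drd1 above 83.2% and Ppp1r1b above 79.9% of tested genes. The 4 groups accounted for 53.7% of the variance of Drd1, 32.2% of that of Drd2, 25.7% of that of Adora2a and 20.8% of that of Ppp1r1b. Most of the variance of the last 3 thus lay between daughters of the same group. Group means take up part of the variance of any gene even where groups do not differ. The share over all tested genes was not computed, so these values are not read as group differences. In whole tissue, fewer cells of a type and less RNA per cell cannot be told apart.

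Over all 19 libraries, Drd2, Adora2a and Ppp1r1b varied together under every alternative run, while the relations of Drd1 to them depended on which libraries were used. Correlations were computed on log2(CPM + 1) over the 19 libraries for the 6 pairs, with permutation p-values adjusted over the 6. Drd2 and Adora2a had Pearson's r = 0.93 (permutation p = 1e-05, the smallest that 100000 permutations can give, adjusted p = 6e-05) and Spearman's rho = 0.90 (permutation p = 1e-05, adjusted p = 6e-05). Adora2a and Ppp1r1b had r = 0.87 (permutation p = 2e-05, adjusted p = 6e-05) and rho = 0.81 (permutation p = 4e-05, adjusted p = 0.00012). Drd2 and Ppp1r1b had r = 0.74 (permutation p = 0.0003, adjusted p = 0.0006) and rho = 0.72 (permutation p = 0.00079, adjusted p = 0.00158). These 3 relations held without the 2 libraries farthest from the median of the first gene, at r = 0.89, 0.77 and 0.54 (permutation p = 4e-05, 0.00026 and 0.0241). They also held within groups: with each group's mean subtracted and values permuted within groups, r was 0.93, 0.85 and 0.71 (adjusted permutation p = 6e-05, 6e-05 and 0.00316).

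The correlations of Drd1 changed with the libraries left out, in both directions. Drd1 and Adora2a had r = 0.57 (permutation p = 0.012, adjusted p = 0.018) but rho = 0.43 (permutation p = 0.0672, adjusted p = 0.0806). Drd1 and Drd2 had r = 0.54 (permutation p = 0.0159, adjusted p = 0.0191) but rho = 0.45 (permutation p = 0.0533, adjusted p = 0.0799). Drd1 and Ppp1r1b had r = 0.39 (permutation p = 0.102, adjusted p = 0.102) and rho = 0.077 (permutation p = 0.756, adjusted p = 0.756). Without ELS replicates 1 and 2, the libraries farthest from the median of Drd1, r was 0.165 with Adora2a, 0.15 with Drd2 and -0.26 with Ppp1r1b (permutation p = 0.527, 0.557 and 0.311). Leaving out the libraries with the highest Drd1 also narrows its range, which can lower r by itself. HFD replicate 1 was kept in that run, so the lower r does not show that the relations rested on those daughters. With group means subtracted r was 0.36, 0.24 and 0.15 (adjusted permutation p = 0.3, 0.508 and 0.578). HFD replicate 1 pulled the other way, with the lowest Drd1 CPM of all libraries and the fourth-highest Drd2 and Ppp1r1b. Without it, ELS-HFD replicate 2 and ELS-HFD replicate 3, r over 16 libraries was 0.73 with Adora2a, 0.77 with Drd2 and 0.59 with Ppp1r1b (adjusted permutation p = 0.00156, 0.00066 and 0.0194). Over the same 16 libraries r was 0.94 for Drd2 and Adora2a, 0.88 for Adora2a and Ppp1r1b and 0.74 for Drd2 and Ppp1r1b, the last below that of Drd1 and Drd2, and all 6 pairs passed. The difference between the correlations of Drd1 and those of the other genes was not tested.

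**Figure D2:**
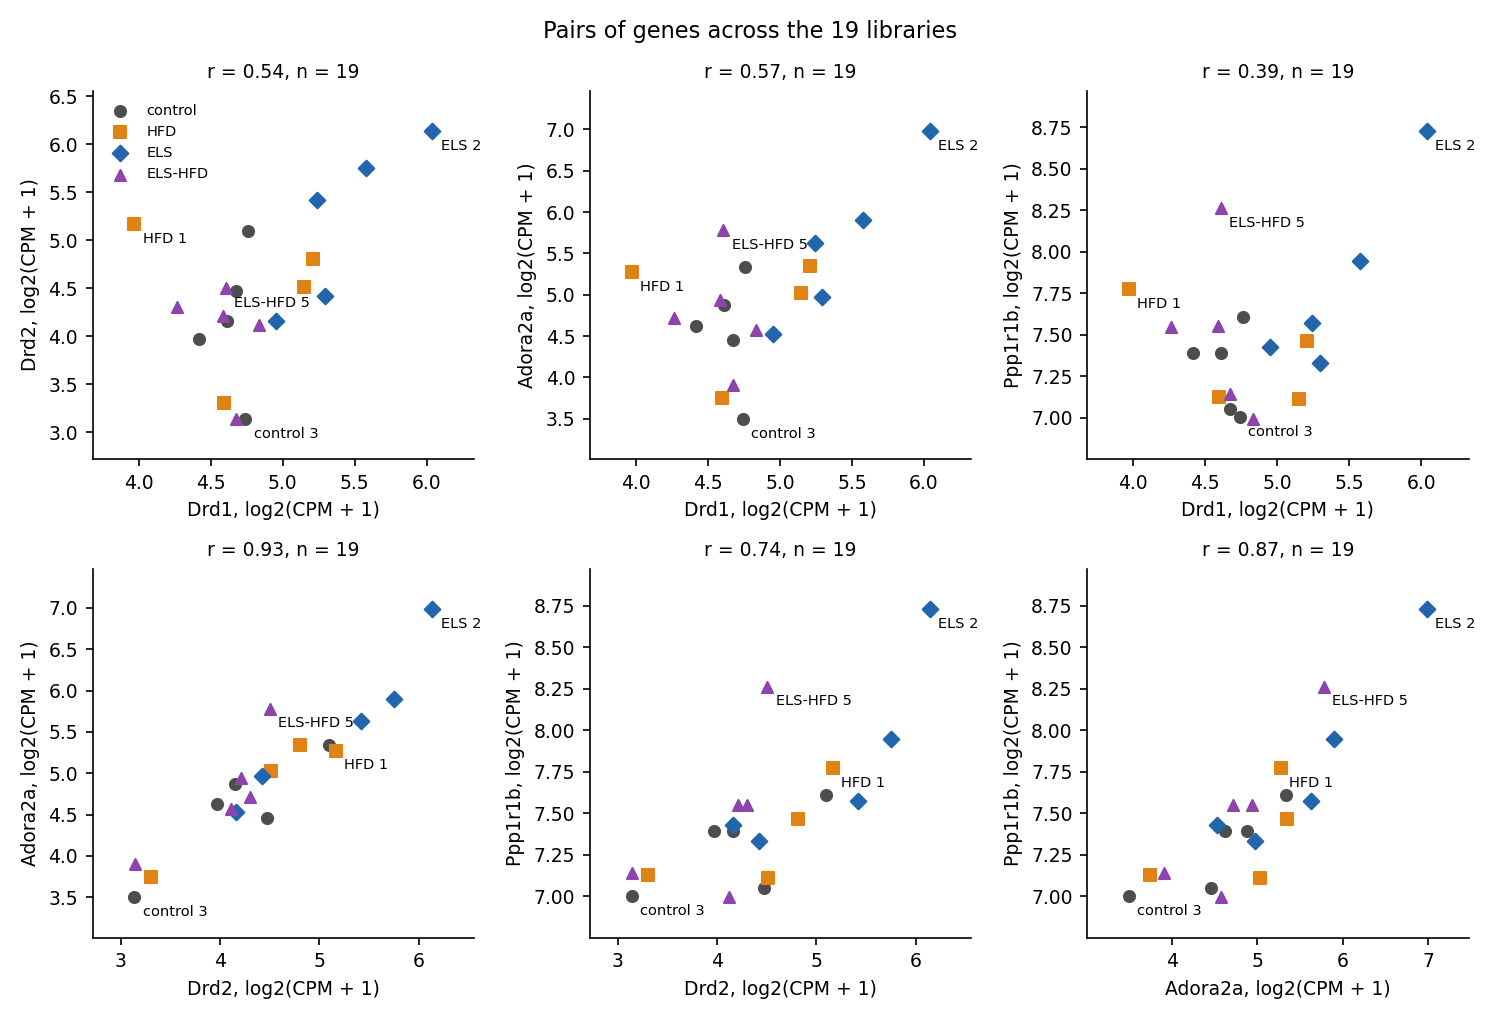
Each panel plots log2(CPM + 1) of a pair of the 4 genes for the 19 libraries, coloured and shaped by the father's exposure, with Pearson's r above it. The lower row (Drd2, Adora2a and Ppp1r1b among themselves) falls along a line at r = 0.74 to 0.93, while in the upper row (Drd1 with each other gene) the points scatter more. There ELS replicate 2 and HFD replicate 1 sit at opposite ends of the Drd1 axis, although both are above the median of the other gene.

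Ranks among all genes place these correlations beside the rest of the table. Among the 15371 other tested genes ordered by r with Drd2 over the 19 libraries, Adora2a stood in place 3 and Ppp1r1b in place 62. Ordered by r with Adora2a, Drd2 stood in place 3 and Ppp1r1b in place 7, and ordered by r with Ppp1r1b, Adora2a stood in place 2 and Drd2 in place 29. Ordered by r with Drd1, Adora2a stood in place 2812, Drd2 in place 3213 and Ppp1r1b in place 5207. In the other direction Drd1 was much nearer, in place 243 by r with Drd2, 168 by r with Adora2a and 725 by r with Ppp1r1b. The median r over all tested genes was 0.147 with Drd1, against -0.019 with Drd2, 0.025 with Adora2a and 0.0036 with Ppp1r1b. The places by r with Drd1 depended on the 3 libraries that stood apart: over the other 16, chosen for this after seeing the data, Drd2 stood in place 53, Adora2a in place 89 and Ppp1r1b in place 564. Over those 16, Adora2a and Drd2 stood in places 5 and 4 of each other's order, and Ppp1r1b in place 199 by r with Drd2 and 13 by r with Adora2a. Drd1 then stood in place 120 by r with Drd2, 105 by r with Adora2a and 333 by r with Ppp1r1b. The 100 genes closest to Drd2 and the 100 closest to Adora2a shared 74, and 66 over the 16 libraries. Adora2a and Ppp1r1b shared 66, and 53 over the 16, while Drd2 and Ppp1r1b shared 50, and 30 over the 16. Drd1 shared 1 with Drd2, 2 with Adora2a and 0 with Ppp1r1b, and 27, 24 and 11 over the 16. All of these values share the same libraries and their totals.

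A ratio of counts within a library does not depend on the library total. The ratio of Drd2 to Adora2a ran from 0.402 in ELS-HFD replicate 5 to 1.01 in control replicate 4, a 2.52-fold range, while Drd2 itself ranged 8.89-fold and Adora2a 12.2-fold. The SD of its log2 was 0.32, below the 0.81 and 0.82 of the genes. The ratio of Drd1 to Drd2 ran from 0.421 in HFD replicate 1 to 3.29 in control replicate 3, a 7.83-fold range with an SD of 0.72 on the log2 scale. Its lowest value without HFD replicate 1 was 0.784 in control replicate 5, with a 4.20-fold range and an SD of 0.62. ELS-HFD replicate 1 and HFD replicate 3, which with control replicate 3 had the lowest Drd2, were also high in this ratio, at 3.13 and 2.61. Drd1 in these 3 libraries was at 23.2 to 25.7 CPM, close to its control mean of 24.03 CPM. The ratios of Drd2, Drd1 and Adora2a to Ppp1r1b had SDs of 0.61, 0.53 and 0.51, or 0.62, 0.45 and 0.52 without HFD replicate 1. Such an SD also depends on the spread of each gene. Over the 19 libraries that spread was 0.81 for Drd2, 0.48 for Drd1 and 0.45 for Ppp1r1b. The smaller SD for Drd1 than for Drd2 therefore does not mean that Drd1 followed Ppp1r1b more closely. Pearson's r with Ppp1r1b was 0.39 for Drd1 and 0.74 for Drd2.

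**Figure D3:**
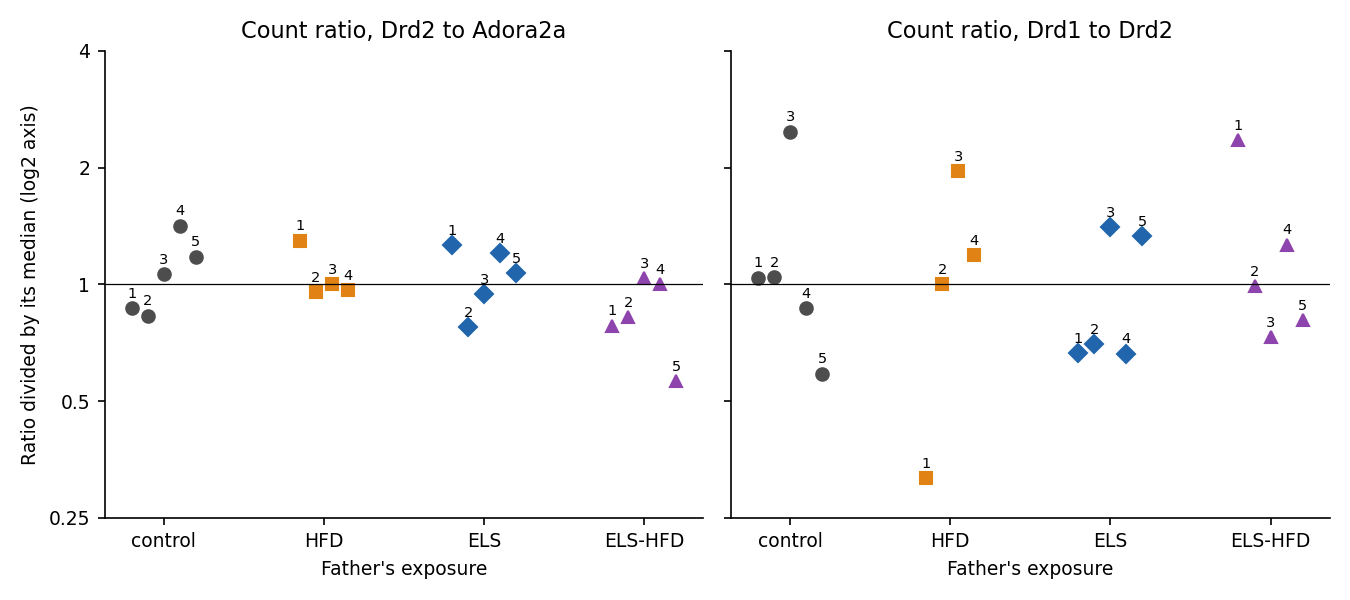
Ratio of the counts of a pair of genes within each library, divided by the median ratio over the 19 libraries, on a log2 axis by the father's exposure, with points numbered by replicate. The ratio of Drd2 to Adora2a stays within a 2.52-fold range, and the ratio of Drd1 to Drd2 spans 7.83-fold from HFD replicate 1 to control replicate 3, or 4.20-fold without HFD replicate 1.

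Among all tested identifiers outside the 4, the closest to their mean pattern over the 19 libraries were ENSRNOG00000026953 (r = 0.97) and ENSRNOG00000026679 (r = 0.95), and the most opposed were ENSRNOG00000008530 (r = -0.77) and ENSRNOG00000011705 (r = -0.77). No symbol could be paired with them. ENSRNOG00000026953 ran from 42.9 to 325 CPM and had r = 0.99 with Adora2a, 0.91 with Drd2, 0.87 with Ppp1r1b and 0.60 with Drd1. ENSRNOG00000026679 ran from 6.46 to 109 CPM. Both were highest in ELS replicate 2, the library that was highest in all 4 genes. ENSRNOG00000008530 stayed between 49.9 and 66.8 CPM and ENSRNOG00000011705 between 375 and 536 CPM, so the opposed identifiers moved little.

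The comparison of ELS with control asks whether the father's early life stress goes with a difference in the daughters. All 4 genes were higher on average in ELS, and none passed the test after adjustment over 15372 genes. The edgeR log2 fold change was 0.81 ± 0.20 (SE) for Drd1, 1.07 ± 0.44 (SE) for Drd2, 1.19 ± 0.46 (SE) for Adora2a and 0.56 ± 0.27 (SE) for Ppp1r1b. Their median was 0.94. Over all tested genes it was -0.0022, a value that the scaling between libraries keeps small. The 4 genes varied together in part, so they are not 4 independent results. Drd1 stood in place 4 of 15372 by its unadjusted p of 0.000697, and Drd2 and Adora2a had unadjusted p of 0.0249 and 0.0178, where 2.2% of tested genes had an unadjusted p under 0.05 and were higher. The adjusted p by edgeR's quasi-likelihood test was 0.913 for each of the 4, and over the alternatives that of Drd1 ran from 0.156 to 0.995. Drd1 was the only one of the 4 without overlap between the groups, which was so, in this direction, for 2.51% of tested genes. Without ELS replicate 2 the log2 fold change was 0.65 for Adora2a and 0.23 for Ppp1r1b, and 0.61 and 0.76 for Drd1 and Drd2. The first principal component ran from -29.02 to -19.79 in ELS and from -23.56 to 5.42 in control libraries, and its part in the result was not tested.

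The comparison of ELS-HFD with ELS bears on the high-fat diet where all fathers had early life stress, and it shares the ELS libraries with the one before. All 4 genes were lower on average in ELS-HFD, with a median log2 fold change of -0.91. Over all tested genes it was 0.012, which the scaling keeps small, and the 4 genes are again not independent of each other. The edgeR log2 fold change was -0.86 ± 0.20 (SE) for Drd1, -1.27 ± 0.44 (SE) for Drd2, -0.96 ± 0.46 (SE) for Adora2a and -0.31 ± 0.27 (SE) for Ppp1r1b. The adjusted p by edgeR's quasi-likelihood test was 0.206, 0.221, 0.253 and 0.503 in that order, so 0 of the 4 passed. Drd1 (place 29 of all genes), Drd2 and Adora2a were lower with an unadjusted edgeR p of 0.000449, 0.01 and 0.0496, and 11% of tested genes were lower with an unadjusted p under 0.05. Drd1 did not overlap between the groups, and neither did 4.92% of tested genes in this direction.

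This comparison depended on libraries outside and inside it. DESeq2 called Drd1 lower (adjusted p = 0.0199), where it called 0.67% of genes lower. Without HFD replicate 1, which takes no part in the comparison but enters the estimated spread of each gene, the edgeR test called Drd1 (log2 fold change -0.84, adjusted p = 0.0142) and Drd2 (log2 fold change -1.25, adjusted p = 0.0494), where it called 7.92% of genes lower. Without HFD replicate 1, ELS-HFD replicate 2 and ELS-HFD replicate 3 edgeR called neither, and 0% of genes lower (log2 fold change -0.75 and -1.38, edgeR adjusted p = 0.131 and 0.182). Without ELS replicate 2 the log2 fold change was -0.42 for Adora2a and 0.021 for Ppp1r1b, so the sign of the last turned. The first principal component was at -16.87 to 49.23 in ELS-HFD libraries, above all ELS libraries. Over the 16 libraries that did not stand apart on it, log2(CPM + 1) had r = -0.52 with that component for Drd1, -0.55 for Drd2, -0.45 for Adora2a and -0.23 for Ppp1r1b (permutation p = 0.0365, 0.0297, 0.077 and 0.407, adjusted over the 4 to 0.073, 0.073, 0.103 and 0.407). Of all tested genes, 18.5%, 17.04%, 22.6% and 38.8% had a lower r with that component than these genes, in the same order. Spearman's rho was -0.61, -0.47, -0.47 and -0.34 (permutation p = 0.0147, 0.0675, 0.0661 and 0.193, adjusted p = 0.0588, 0.09, 0.09 and 0.193). Without the 2 libraries farthest on that component r was -0.51, -0.63, -0.48 and -0.22 (permutation p = 0.0591, 0.0166, 0.0815 and 0.453). Group means were not subtracted for these correlations. The ELS libraries lay at -29.02 to -19.79 on that component, so its r with these genes includes the difference between groups. The part of that component in the differences was not tested.

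**Figure D4:**
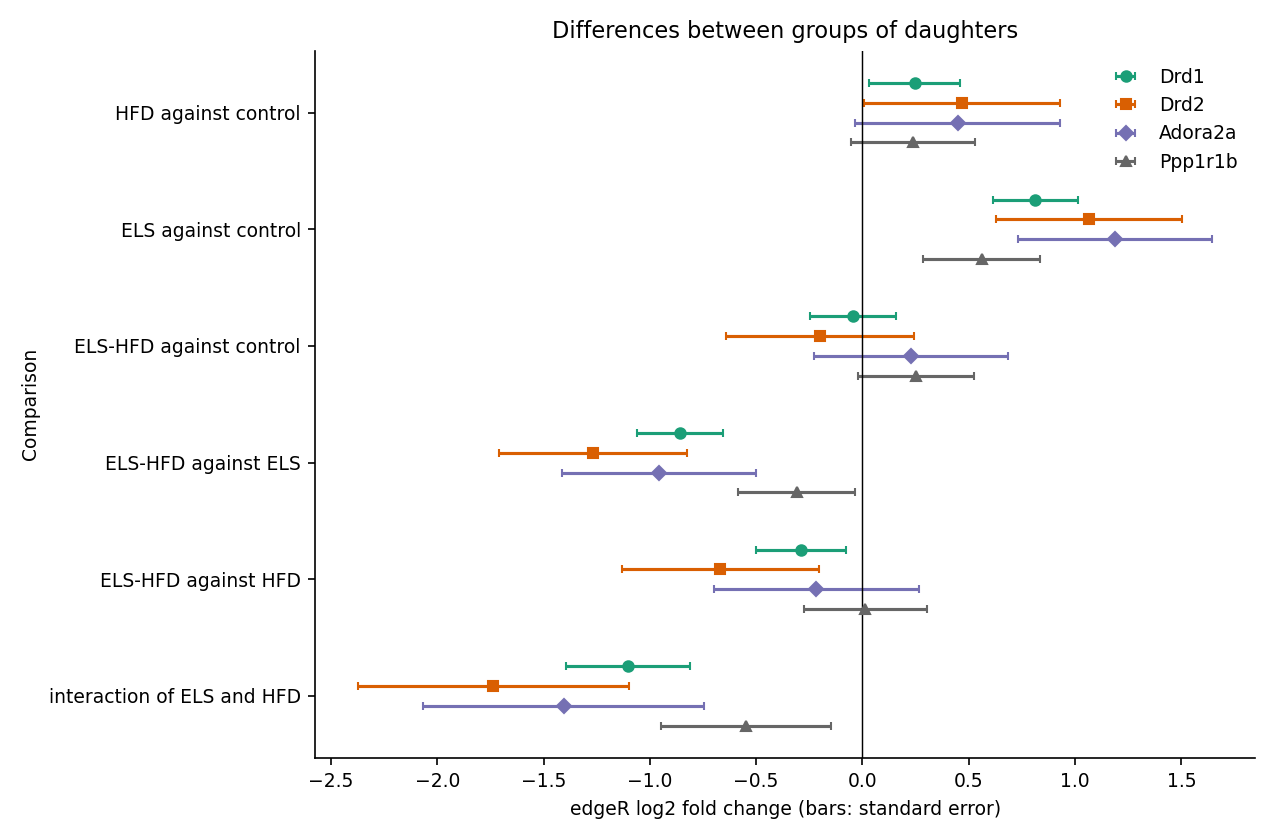
edgeR log2 fold change (horizontal axis) of the 4 genes in the 6 comparisons (vertical axis), with bars for the standard error and a line at 0. The ELS against control values lie at 0.56 to 1.19, the ELS-HFD against ELS values at -1.27 to -0.31 and the interaction at -1.74 to -0.55, while the other comparisons lie between -0.67 and 0.47.

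The other pairwise comparisons gave smaller differences, none past the threshold. In HFD against control the log2 fold changes were 0.25 ± 0.21 (SE) for Drd1, 0.47 ± 0.46 (SE) for Drd2, 0.45 ± 0.48 (SE) for Adora2a and 0.24 ± 0.29 (SE) for Ppp1r1b (edgeR adjusted p from 0.731 to 0.8). Without HFD replicate 1 they were 0.39, 0.052, 0.20 and -0.044, so the values of Drd2, Adora2a and Ppp1r1b were smaller and that of Drd1 larger. In ELS-HFD against control, daughters of fathers with both exposures lay between -0.20 (Drd2) and 0.25 (Ppp1r1b) on the log2 scale, with Drd1 at -0.043 ± 0.20 (SE) and Adora2a at 0.23 ± 0.46 (SE) (edgeR adjusted p from 0.854 to 0.969). In ELS-HFD against HFD the values were -0.29 ± 0.21 (SE) for Drd1, -0.67 ± 0.46 (SE) for Drd2, -0.22 ± 0.48 (SE) for Adora2a and 0.014 ± 0.29 (SE) for Ppp1r1b (edgeR adjusted p = 1). Without HFD replicate 1 they were -0.42, -0.23, 0.047 and 0.32.

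The interaction asks whether the difference that goes with the diet depends on the father's early life. The log2 difference of differences was -1.10 ± 0.29 (SE) for Drd1, -1.74 ± 0.64 (SE) for Drd2, -1.40 ± 0.66 (SE) for Adora2a and -0.55 ± 0.40 (SE) for Ppp1r1b. Drd1 stood in place 17 by its unadjusted p of 0.00131, and Drd2 and Adora2a had unadjusted p of 0.0134 and 0.0471, where 2.29% of tested genes had an unadjusted p under 0.05 and a negative value. None passed after adjustment (edgeR adjusted p = 0.969 for Drd1, Drd2 and Adora2a and 1 for Ppp1r1b). Without ELS replicate 2 the value was -0.87 for Adora2a and -0.22 for Ppp1r1b, and without HFD replicate 1 it was -1.23 for Drd1, -1.30 for Drd2, -1.14 for Adora2a and -0.25 for Ppp1r1b. The unadjusted edgeR p was then 0.00025 for Drd1, 0.0519 for Drd2 and 0.111 for Adora2a, and without the 3 libraries that stood apart 0.00128, 0.0577 and 0.164, so Drd1 alone stayed under 0.05. The interaction uses the same libraries as the pairwise comparisons and is not independent of them.

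Across all genes, edgeR called 0 identifiers (0%) at an adjusted p under 0.05 in each of the 6 comparisons. The numbers with an unadjusted p under 0.05 were 1198 for HFD against control, 668 for ELS against control, 643 for ELS-HFD against control, 3039 for ELS-HFD against ELS, 519 for ELS-HFD against HFD and 788 for the interaction. limma-voom called 0 in each, and DESeq2 called 5, 1, 0, 151, 3 and 5 in that order. Whether tissue of the striatum was taken with some of the samples was not tested, since no other striatal gene could be identified in the table.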

How the data were processed

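The authors deposited 1 table of raw read counts, in whole numbers for each Ensembl identifier, made with featureCounts per the file name; the submitters' processing notes name the Rnor 6.0 build and DESeq2. The aligner, annotation release and strand setting were not stated in any label or header used here, so reads of overlapping genes could not be told apart. About 400 ng of RNA per sample, enriched for polyadenylated RNA, went into random-primed libraries, per the labels' protocols. Each of the 19 columns carries a number that 1 sample description also gives, and samples were assigned on it. CPM was computed from column sums; log2 values used a pseudocount of 1 CPM.

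Genes were kept by filterByExpr and tested with edgeR 4.0.16 (TMM, quasi-likelihood F test, R 4.3.3), 1 fit over all libraries with group as the only term, with Benjamini-Hochberg adjustment over 15372 genes and calls at 0.05. The SE is the size of the log2 fold change divided by the square root of F. Alternatives were DESeq2 1.42.0, limma-voom 3.58.1, other scalings, no filter, fits to the groups compared, a replicate block and left-out libraries. Correlations used 100000 two-sided permutations (numpy 2.4.6). The edgeR and correlation code was tested on simulated data. No pair of libraries of a group agreed within sampling noise (chi-square per gene at least 5.25).

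The 4 genes, the lists and the tests were chosen with earlier results of these data known. The rule for named genes took the 4 members and the 2 identifiers most and least correlated with their mean. The 12 lists of marker and pathway genes were not used, since the reference holds 0 Ensembl IDs.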

Additional observations from a re-analysis of the deposited data

Results flagged for a closer look

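Drd2 in ELS-HFD replicate 1 was far below the other ELS-HFD libraries, at 3.14 as log2(CPM + 1). It was the 1 such case in 16 groups of values (4 genes in 4 groups), and chance gives about 1 in 20. The difference between daughters of fathers with and without HFD was lower with paternal ELS than without it for all 4 genes. For 3 of them, and not for Ppp1r1b (-0.55), the unadjusted p was under 0.05 in the edgeR test of the interaction. The log2 values were -1.10 for Drd1, -1.74 for Drd2 and -1.40 for Adora2a (edgeR unadjusted p = 0.00131, 0.0134 and 0.0471), where 2.29% of tested genes had an unadjusted p under 0.05 and a negative value, and none of the 3 passed adjustment over all genes (edgeR adjusted p = 0.969 for each). Over the alternatives the adjusted p ran from 0.141 to 1 for Drd1, from 0.252 to 1 for Drd2 and from 0.343 to 1 for Adora2a. Without HFD replicate 1 the unadjusted edgeR p was 0.00025 for Drd1, 0.0519 for Drd2 and 0.111 for Adora2a, so the last 2 were no longer under 0.05.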

How the results depend on the processing

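For the log2 fold changes of the 4 genes, 628 alternative values kept direction and side of the threshold, 13 changed sign and 3 passed it. With DESeq2, Drd1 passed in ELS-HFD against ELS (-0.85, adjusted p = 0.0199). Leaving out each library in turn gave these ranges: -0.97 to -0.65 for Drd1, -1.47 to -0.96 for Drd2 and -0.52 to 0.021 for Ppp1r1b in ELS-HFD against ELS; -0.044 to 0.36 for Ppp1r1b in HFD against control; -0.12 to 0.029 for Drd1, -0.39 to 0.12 for Drd2 and -0.084 to 0.48 for Adora2a in ELS-HFD against control; and -0.53 to 0.047 for Adora2a and -0.20 to 0.32 for Ppp1r1b in ELS-HFD against HFD. Without the 3 libraries that stood apart the sign turned for Ppp1r1b in HFD against control (-0.043), Drd1 in ELS-HFD against control (0.062) and Adora2a in ELS-HFD against HFD (0.064).

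With the replicate number as a block, Ppp1r1b in ELS-HFD against HFD was -0.031, and no call changed. Whether the replicate numbers pair the libraries was not tested. Deviations from the group means correlated over 0.1 in 9 of 27 same-numbered pairs, with r from -0.44 to 0.57. A library's closest match in another group, out of the 4 or 5 libraries there, was its own number in 15 of 54 cases. The number that unpaired libraries would give was not computed. The block left 0 called in every comparison.

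The number of genes called rose from 0 with DESeq2 to 5 in HFD against control, 1 in ELS against control, 151 in ELS-HFD against ELS, 3 in ELS-HFD against HFD and 5 in the interaction, and to 3 in HFD against control in a fit to those groups alone. Over left-out libraries it ran from 0 to 2405 in ELS-HFD against ELS (2405 when HFD replicate 1 was left out and 1 when it was ELS-HFD replicate 4), and from 0 to 12 in the interaction (12 without ELS replicate 5).

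The correlations among Drd2, Adora2a and Ppp1r1b passed under every alternative run. Those of Drd1 with Drd2 and Adora2a did not pass as Spearman's rho (0.45 and 0.43), with group means subtracted (0.24 and 0.36) or without the 2 farthest libraries (0.15 and 0.165). Leaving out each library in turn gave 0.35 to 0.73 for Drd1 and Drd2, 0.33 to 0.69 for Drd1 and Adora2a and -0.020 to 0.51 for Drd1 and Ppp1r1b, lowest without ELS replicate 2 and highest without HFD replicate 1. Over these runs the adjusted permutation p reached 0.218 for Drd1 with Drd2 and for Drd1 with Adora2a, so neither pair passed in every run. Drd1 and Ppp1r1b, which did not pass over all 19 libraries, passed in 3 alternatives, among them the run without the 3 libraries that stood apart (0.59). The sign of this pair changed without the 2 farthest (-0.26) and without ELS replicate 2 (-0.020). The cause was not tested. The lowest count of any of the 4 genes was 104, and the part of library depth in these values was not tested. Places, overlaps and ratios without the libraries that stood apart were added after seeing the data; the place of Drd2 by r with Drd1 went from 3213 to 53, the genes shared by the 100 closest to each from 1 to 27, and the range of their ratio from 7.83-fold to 4.20-fold.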
